A study of Mus musculus with 6 samples.

Results

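The interferon response and MHC class I genes were a list of 35 genes, chosen by gene name out of 55359 annotated mouse genes. Of these, 34 were found under the listed name and Rigi under its older name Ddx58. The RNA was that of whole brains of mouse embryos taken shortly before birth (E18.5), and each of the 6 libraries was made from a pool of 3 brains. Wild-type (WT) embryos gave 3 libraries and embryos with the PME-1 S156A knock-in allele gave 3. PME-1, the product of Ppme1, takes a methyl group off the catalytic part of protein phosphatase 2A, and S156A replaces its active-site serine with alanine. The labels used here name no strain or sex and do not say how many alleles were mutant. Levels are given as TPM (a share of the transcripts in a library, corrected for length). Each pool holds different brains, so the spread between libraries mixes biological and technical variation. In these bulk samples, fewer cells of a type and less RNA per cell cannot be told apart.

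Type I interferons signal through a receptor made of the chains Ifnar1 and Ifnar2. The kinases Jak1 and Tyk2 then activate Stat2, which works with Irf9 in a complex that binds the interferon-stimulated response element (ISRE) in target promoters. Interferon gamma acts on a second element, GAS. Both kinds of interferon raise the antiviral effectors and the MHC class I pathway, in which peptides cut by the proteasome are carried into the endoplasmic reticulum and loaded onto heavy chains paired with beta-2-microglobulin. Many of these genes also have a basal level without interferon, in microglia, vessels, meninges and other cells.

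The promoter elements that name this gene class were looked up in RefSeq promoter windows (build GRCm38.p6, 250 bases before to 50 after each start), which held 30 of the 35 members. Usp18, Mx1, Mx2, Ifi27 and Cd74 had no entry. The ISRE core GAAA-NN-GAAA (N is any base), on either strand, was found in 13 of the 30 (43.3%), against 3.99% of the 27025 genes in the table. The GAS letters TTCNNNGAA were found in 9 of the 30 (30%), against 9.55% of all genes. Bst2, Ifitm3 and Oas1a held both, and in Bst2 and Ifitm3 matches of the 2 motifs overlapped. The stretches below lie upstream of the start, 5′ to 3′ along the gene, with motif matches in capitals. They were picked to show the arrangement of the elements, in Ifit3, its copy Ifit3b, Bst2, B2m and Psmb8 and in the classical targets Ifit1 and Isg15, and they do not stand for all members described below. Of the 7 members with an unadjusted p under 0.05 and a window, 3 held an ISRE core (Ifit3, Bst2 and B2m). The windows of Irf7 and Tapbp held neither motif, and that of Ifnar1 held GAS letters only. The Ifit1 stretch is chr19:34640755-34640843 (plus strand), the Ifit3 stretch chr19:34583343-34583446 (plus strand) and the Ifit3b stretch chr19:34607739-34607842 (plus strand). Isg15 is at chr4:156200845-156200926 (minus strand), Bst2 at chr8:71537557-71537638 (minus strand), B2m at chr2:122147518-122147587 (plus strand) and Psmb8 at chr17:34198068-34198136 (plus strand).
Ifit1: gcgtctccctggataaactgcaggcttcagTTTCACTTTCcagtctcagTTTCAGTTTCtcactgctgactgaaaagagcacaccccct
Ifit3: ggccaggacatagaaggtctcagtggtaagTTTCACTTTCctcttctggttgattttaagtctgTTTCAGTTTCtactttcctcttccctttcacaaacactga
Ifit3b: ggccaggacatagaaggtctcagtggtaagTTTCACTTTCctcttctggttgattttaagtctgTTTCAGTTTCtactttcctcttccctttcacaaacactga
Isg15: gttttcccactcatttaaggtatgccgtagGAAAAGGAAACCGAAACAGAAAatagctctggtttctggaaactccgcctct
Bst2: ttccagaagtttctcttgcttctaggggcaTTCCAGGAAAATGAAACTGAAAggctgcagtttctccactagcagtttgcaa
B2m: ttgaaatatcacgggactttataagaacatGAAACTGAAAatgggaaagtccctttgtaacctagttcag
Psmb8: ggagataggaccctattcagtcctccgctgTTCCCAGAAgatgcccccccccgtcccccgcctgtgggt

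Ifit1, Ifit3 and Ifit3b carried the same pair of ISRE cores in reverse orientation, TTTCACTTTC and TTTCAGTTTC. The printed stretches of Ifit3 and Ifit3b were identical, and their windows shared a run of 169 bases. In Isg15, 3 overlapping ISRE cores formed a single block, and in Bst2 a GAS match ran into 2 overlapping ISRE cores. B2m had 1 ISRE core, and Psmb8 had a GAS match with no ISRE core in the window.

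The libraries differed in depth and in tissue content. Depth, estimated from coverage and FPKM, ran from 3.15 to 4.14 aligned gigabases. Snap25, a synaptic gene of neurons, was between 157 and 227 TPM in WT and between 113 and 149 TPM in S156A, with no overlap. Its log2 difference was -0.52 (limma adjusted p = 0.257). Ppme1 was between 72.4 and 95.03 TPM in all 6 libraries, which does not check a point mutation. WT replicate 3 and S156A replicate 1 stood apart. Acta1, the skeletal muscle actin, was at 2472 and 2611 TPM there and between 8.22 and 333 TPM in the other 4 libraries. Summed TPM of 12 meningeal fibroblast markers was 2282 and 2773 in these libraries and between 337 and 697 in the others. They are called the muscle-rich libraries below, and values are also given within them (S156A replicate 1 against WT replicate 3) and within the other 4, called muscle-poor. Of these 4, WT replicate 2 still had a skeletal muscle marker sum of 1105 TPM, against 26.7, 82.5 and 65.9 TPM in WT replicate 1 and S156A replicates 2 and 3, so the muscle-poor comparison is not free of muscle RNA in WT.

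The comparison asked how transcript levels of this pathway stand in S156A brains beside WT brains. Most members had higher values in S156A, led by class I antigen presentation, Irf7, Usp18, Ifit3 and Bst2, but none passed the test over all genes. Of the 35 members, 30 had a mean of at least 1 TPM and were tested by limma on log2(TPM + 1) among 18893 genes. Irf7, Usp18, Ifit3 and Psmb9 had WT means of 0.995, 0.814, 0.938 and 0.828 TPM and reached that filter only through S156A. The same holds for Oas1a, Mx2 and Xaf1 (WT means 0.738, 0.802 and 0.919 TPM). The counts below include these genes and are for them not independent of the filter. Of the 30 tested members, 0 had an adjusted p under 0.05, against 0.159% of all tested genes (0.0847% higher and 0.0741% lower in S156A). The smallest adjusted p (limma, Benjamini-Hochberg) was 0.206. At an unadjusted p under 0.05 there were 8 members, all higher in S156A (26.7%), against 8.41% of all tested genes that were higher and 5.5% that were lower at that level. Libraries of the 2 groups did not overlap for 8 members higher in S156A (26.7%, against 13.7% of all genes) and for 2 members lower (against 7.05%). A higher mean on the log2 scale was found for 25 of the 30 (83.3%, against 61.7%). The median log2 difference over the tested members was 0.33, beside 0.09 over all tested genes. Leaving out WT replicate 3 moved that median to 0.54. The count of 8 was 4 without WT replicate 1 or S156A replicate 3, and 5 without S156A replicate 1.

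**Figure D1:**
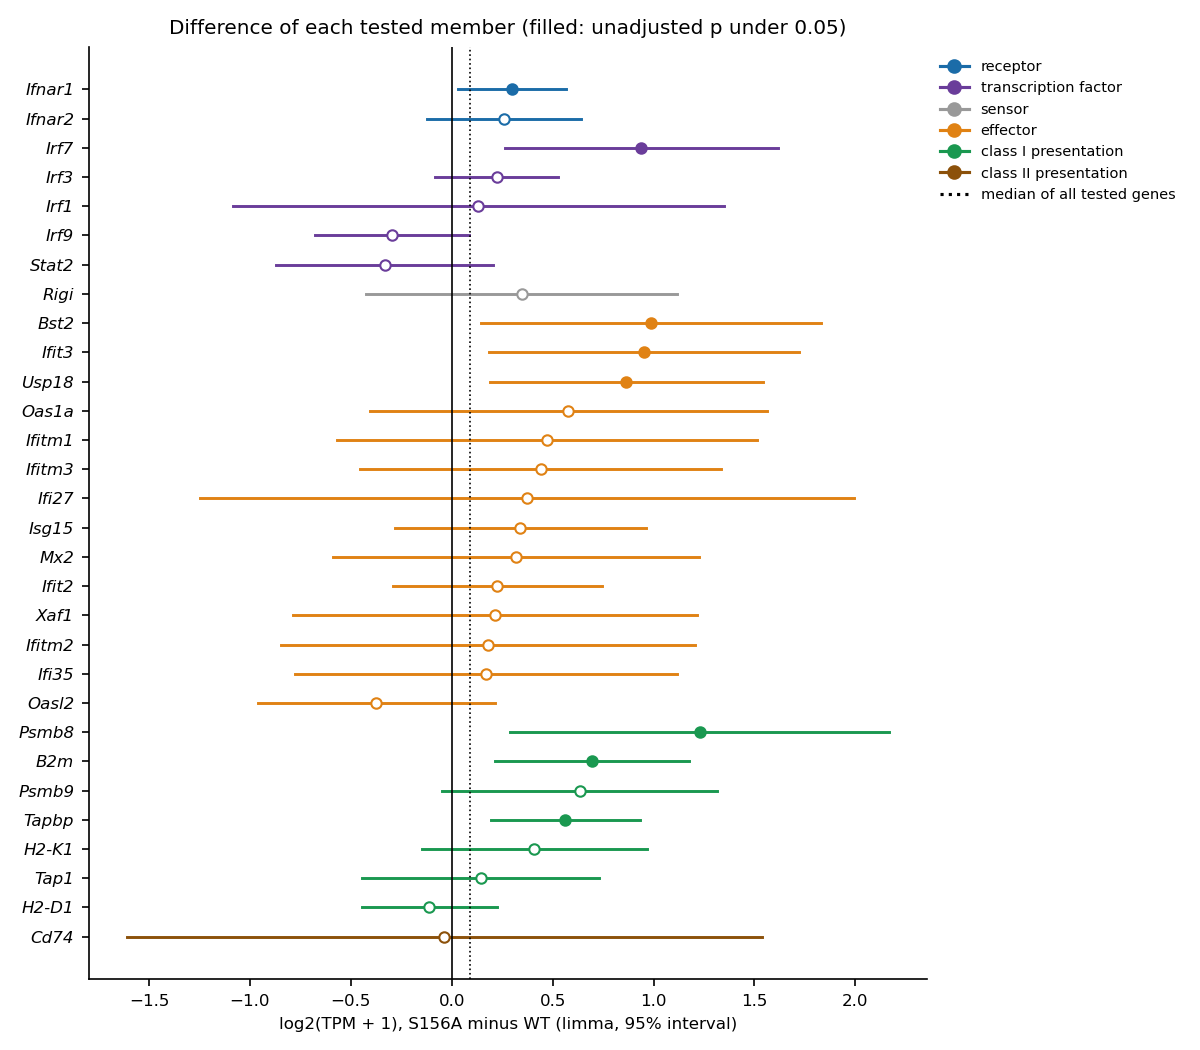
Log2 difference (S156A minus WT, on log2(TPM + 1)) of each of the 30 tested members with its 95% interval from limma, grouped and coloured by role. Filled points had an unadjusted p under 0.05, and the dotted line marks the median of all tested genes at 0.09. All 8 filled points lie to the right of 0.

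Interferon genes themselves were close to undetected. Of 21 type I, II and III interferon genes, 18 were listed at 0 TPM in every library. Ifnk was listed at 0.756 TPM and Ifng at 0.170 TPM in S156A replicate 2 and at 0 in the other libraries. Ifnz did not exceed 0.199 TPM. The tables hold no read counts, so no upper limit can be set for the genes listed at 0.

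Both receptor chains were expressed in every library, with higher means in S156A. Ifnar1, the chain needed for signalling by all type I interferons, measured 46.6, 44.0 and 46.1 TPM in the WT libraries, given here and below in the order of replicates 1 to 3. Its S156A values, in the same order, were 56.0, 62.6 and 51.1 TPM. The groups did not overlap, and the lowest S156A library was above the highest WT library by a small margin. Its log2 difference was 0.30 (SE 0.11, unadjusted p = 0.0324, limma adjusted p = 0.319). The unadjusted p stayed under 0.05 in 10 of 19 alternative settings, and was 0.058 with trimmed-mean scaling. Ifnar2, the high-affinity binding chain, ranged from 22.1 to 26.4 TPM in WT and from 23.7 to 33.6 TPM in S156A, with overlap between the groups. Its log2 difference was 0.26 (SE 0.16), and 0.15 without S156A replicate 1 or 0.39 without S156A replicate 2. Ifnar2 overlaps Gm21970 on the same strand over 13869 bases, so its level is less certain.

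Among the transcription factors, Irf7 was higher in S156A and the ISRE-binding partners Irf9 and Stat2 had lower means. Irf7, the factor that amplifies type I interferon production, measured 0.943, 1.28 and 0.761 TPM in the WT libraries, against 1.91, 3.04 and 3.69 TPM in the S156A libraries. Every S156A library lay above every WT library. The log2 difference was 0.94 (SE 0.29, 95% interval 0.26 to 1.62, limma adjusted p = 0.241). Irf7 kept an unadjusted p under 0.05 in all 17 alternative settings in which it was tested. Its gene overlaps Phrf1 on the opposite strand over 45 bases.

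Irf9, the DNA-binding part of the ISRE complex, measured 15.9, 13.1 and 13.96 TPM in the WT libraries, against 10.7, 12.9 and 10.9 TPM in the S156A libraries. The groups did not overlap, although S156A replicate 2 lay just under WT replicate 2. The log2 difference was -0.30 (SE 0.16, limma adjusted p = 0.462). Irf9 overlaps Rnf31, at a mean of 19.5 TPM, on the same strand over 123 bases, so reads may have been shared between them. Stat2, its signalling partner, measured 18.53, 23.7 and 16.7 TPM in the WT libraries, against 16.5, 19.1 and 11.2 TPM in the S156A libraries, with overlap. Irf3, which responds to nucleic acid sensors, was the most abundant of these factors, at 47.2 ± 2.79 TPM in WT against 55.6 ± 7.74 TPM in S156A (SD, n = 3 each). Irf1, a factor induced by interferon gamma, reached 4.77 TPM in WT replicate 3 and 5.38 TPM in S156A replicate 1, while the other 4 libraries lay between 1.04 and 1.67 TPM. The highest Irf1 values were thus those of the muscle-rich libraries, and the groups overlapped. Its log2 difference was 0.13 (SE 0.52), with 0.13 within the muscle-poor libraries and 0.14 within the muscle-rich pair. The part of muscle content in these values was not tested.

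The cytosolic RNA sensors were low. Rigi, the RIG-I helicase, measured 1.49, 3.33 and 4.001 TPM in the WT libraries, against 2.99, 4.71 and 3.88 TPM in the S156A libraries, with overlap (log2 difference 0.35, SE 0.33). Without WT replicate 1 that difference was 0.05. Ifih1, which codes for MDA5, stayed below 1 TPM in all libraries, with 0.822 TPM in WT replicate 2 as its highest value, and was not tested.

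Class I antigen presentation held the highest share of members without overlap between groups among the roles (57.1%), and neither heavy chain was among them. Of 7 members, 6 had a higher mean in S156A (61.7% of all tested genes did), 4 had groups that did not overlap (13.7% of all genes) and 3 had an unadjusted p under 0.05 (8.41% of all genes). The median log2 difference of the 7 was 0.56. Their summed TPM came to 138, 158 and 202 in the WT libraries, against 240, 208 and 236 in those of S156A. The sum is mostly B2m, H2-D1 and Tapbp, and the highest WT value came from muscle-rich WT replicate 3.

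Tapbp, the tapasin that holds empty class I molecules at the peptide transporter, was at 24.8, 35.3 and 34.1 TPM in WT. In S156A it was at 48.8, 43.4 and 46.9 TPM. All S156A libraries were above all WT libraries, and WT replicate 1 was the lowest. The log2 difference was 0.56 (SE 0.16, 95% interval 0.20 to 0.93, unadjusted p = 0.00833, limma adjusted p = 0.206). It was 0.59 within the muscle-poor libraries and 0.51 within the muscle-rich ones. Tapbp overlaps Zbtb22, at a mean of 29.8 TPM, on the same strand over 3422 bases, so reads may have been shared between them.

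B2m, the light chain of every class I molecule, measured 52.1, 64.5 and 93.5 TPM in the WT libraries, against 117, 103 and 113 TPM in the S156A libraries. The S156A libraries lay close together, and WT varied with muscle-rich replicate 3 as its highest. The log2 difference was 0.70 (SE 0.20, 95% interval 0.22 to 1.18, unadjusted p = 0.0108, limma adjusted p = 0.225). Within the muscle-poor libraries it was 0.88, and within the muscle-rich pair 0.32. B2m and Tapbp kept an unadjusted p under 0.05 in all 19 alternative settings, with adjusted p from 0.0616 to 0.588 for B2m and from 0.123 to 0.461 for Tapbp. B2m overlaps no other expressed gene, and 0 of the 50-base words of its reference transcript occur in another gene.

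Psmb8 and Psmb9 code for subunits that replace constitutive ones in the immunoproteasome, and they neighbour the transporter gene Tap1 on chromosome 17. Psmb8 measured 0.458, 1.30 and 3.12 TPM in the WT libraries, against 4.87, 3.78 and 5.33 TPM in the S156A libraries. The groups did not overlap, and the WT libraries spread widely. Its log2 difference of 1.23 (SE 0.40, 95% interval 0.29 to 2.16, limma adjusted p = 0.262) had the highest value among the tested members on this scale. Psmb9 measured 0.708, 0.481 and 1.30 TPM in the WT libraries, against 1.83, 1.44 and 2.14 TPM in the S156A libraries. These groups also did not overlap, with a log2 difference of 0.63 (SE 0.29, unadjusted p = 0.064, limma adjusted p = 0.388). Tap1, a chain of the peptide transporter, measured 3.41, 5.09 and 5.65 TPM in the WT libraries, against 5.69, 5.89 and 4.20 TPM in the S156A libraries. Tap1 overlapped between groups (log2 difference 0.14, SE 0.25), although its start overlaps that of Psmb9 on the opposite strand by 212 bases.

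The classical heavy chains H2-K1 and H2-D1 did not separate the groups. H2-D1 measured 45.2, 37.5 and 48.4 TPM in the WT libraries, against 38.6, 36.9 and 45.5 TPM in the S156A libraries. Its log2 difference was -0.11 (SE 0.14, 95% interval -0.44 to 0.22). H2-K1 measured 11.2, 13.3 and 15.8 TPM in the WT libraries, against 23.2, 13.04 and 19.1 TPM in the S156A libraries (log2 difference 0.41, SE 0.24, limma adjusted p = 0.488). S156A replicate 2 lay below 2 of the WT libraries. The H2-K1 difference was 0.23 without S156A replicate 1 and 0.63 without S156A replicate 2. In reference transcripts, 14.3% of the 50-base words of H2-D1 and 8.11% of those of H2-K1 occur in other genes, most of all H2-Q1 and H2-D1 respectively, so reads may have been divided among relatives.

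**Figure D2:**
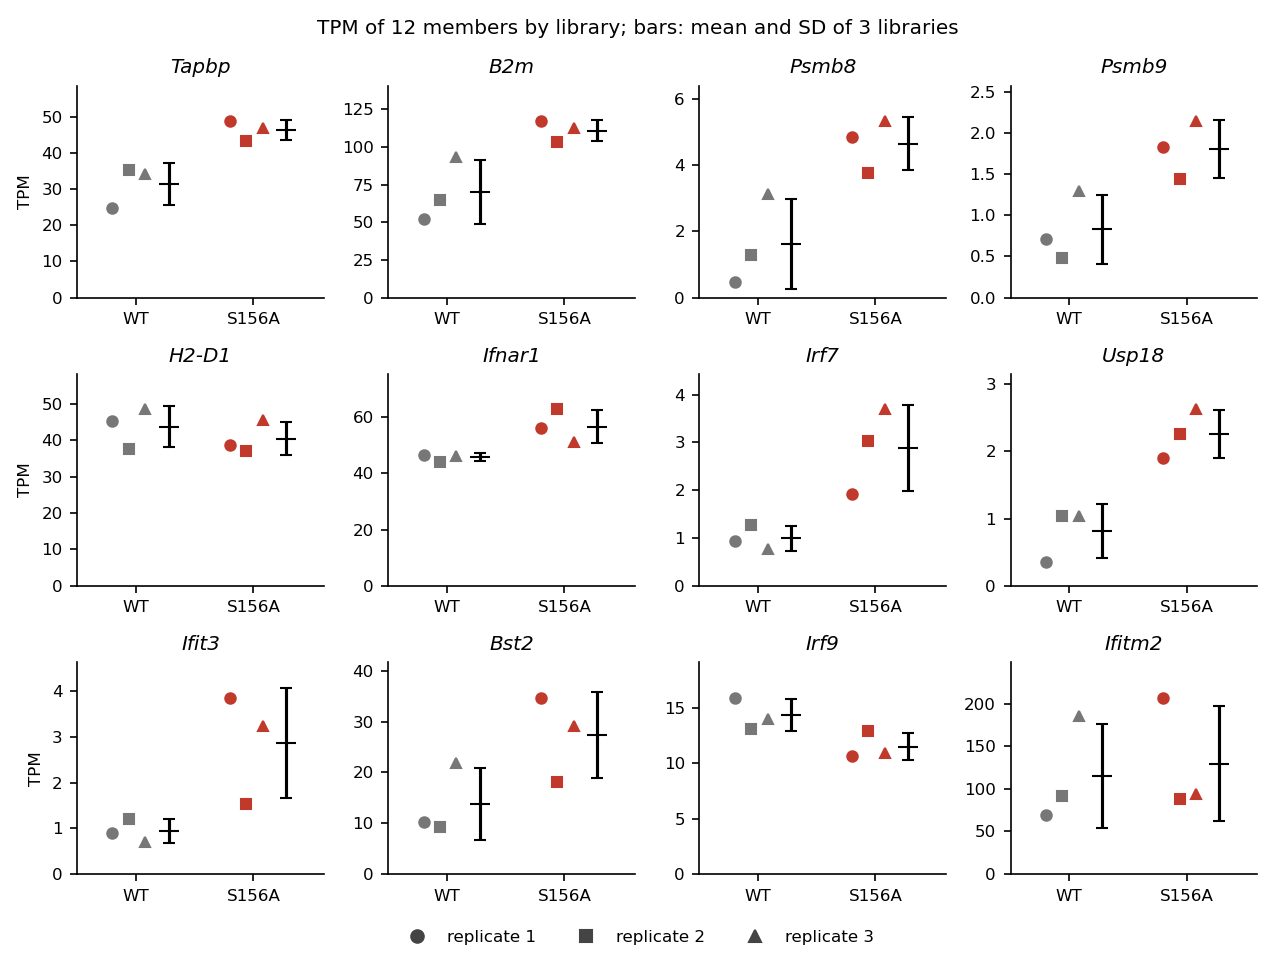
TPM (vertical axis, linear from 0) of 12 members in each WT (grey) and S156A (red) library, with markers for replicates 1, 2 and 3 and bars for the mean and SD of 3 libraries. Tapbp, B2m, Psmb8, Psmb9, Ifnar1, Irf7, Usp18 and Ifit3 have no overlap between groups, H2-D1 overlaps, Irf9 lies lower in S156A, and Ifitm2 is highest in WT replicate 3 and S156A replicate 1.

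Cd74, the invariant chain of the class II pathway, was the one class II member. It measured 0.326, 0.967 and 5.86 TPM in the WT libraries, against 3.73, 0.810 and 0.938 TPM in the S156A libraries. Both muscle-rich libraries stood above the other 4, with no separation by genotype (log2 difference -0.04, SE 0.67).

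The Ifit genes lie side by side on chromosome 19 and code for proteins that bind foreign RNA. Ifit3 measured 0.900, 1.21 and 0.703 TPM in the WT libraries, against 3.86, 1.52 and 3.23 TPM in the S156A libraries. The groups did not overlap, and S156A replicate 2 was closest to WT. The log2 difference was 0.95 (SE 0.33, 95% interval 0.18 to 1.72, limma adjusted p = 0.281). The unadjusted p stayed under 0.05 in 12 of 17 settings, and was 0.14 with both muscle-rich libraries left out. Ifit3b, its near copy, measured 0.107, 0.0378 and 0.313 TPM in the WT libraries, against 0.476, 0.839 and 1.19 TPM in the S156A libraries. It also did not overlap, but its mean was below 1 TPM and it was not among the tested members (log2 difference 0.66, SE 0.18, limma adjusted p = 0.376 with no filter). Of the 50-base words of the Ifit3 reference transcript, 51.2% occur in Ifit3b, so the pair cannot be fully told apart. Ifit2 measured 7.25, 7.19 and 5.46 TPM in the WT libraries, against 6.202, 8.63 and 9.06 TPM in the S156A libraries, with overlap. Ifit1 had its highest value, 1.402 TPM, in S156A replicate 1, was at most 0.570 TPM elsewhere and was not tested.

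Isg15 and Usp18 act as modifier and remover: Isg15 is a ubiquitin-like protein, and Usp18 strips it from targets and dampens signalling at Ifnar2. Usp18 measured 0.355, 1.04 and 1.04 TPM in the WT libraries, against 1.904, 2.26 and 2.62 TPM in the S156A libraries. All S156A libraries lay above all WT libraries (log2 difference 0.87, SE 0.29, 95% interval 0.19 to 1.54, limma adjusted p = 0.271). Its unadjusted p stayed under 0.05 in 15 of 17 settings, with 0.065 without WT replicate 1 and 0.0606 without S156A replicate 3. Usp18 overlaps Gm44148, at a mean of 1.10 TPM, on the opposite strand. Isg15, whose promoter held 3 ISRE cores, measured 4.54, 6.42 and 3.79 TPM in the WT libraries, against 6.14, 5.04 and 8.25 TPM in the S156A libraries. Its groups overlapped (log2 difference 0.34, SE 0.27, limma adjusted p = 0.607). It was 0.18 without S156A replicate 3 and 0.52 without WT replicate 2.

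Bst2, the tetherin that holds budding virions at the membrane, measured 10.3, 9.19 and 21.8 TPM in the WT libraries, against 34.7, 18.2 and 29.1 TPM in the S156A libraries. In each group the muscle-rich library was the highest, and WT replicate 3 lay above S156A replicate 2. The log2 difference was 0.99 (SE 0.36, 95% interval 0.15 to 1.83, unadjusted p = 0.0273, limma adjusted p = 0.302). Within the muscle-poor libraries it was 1.16 and within the muscle-rich pair 0.64. The unadjusted p was under 0.05 in 15 of 19 settings and reached 0.0905 without WT replicate 2.

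The Ifitm genes, which code for membrane proteins that block viral entry, had their highest values in the muscle-rich libraries. Ifitm2 measured 69.4, 91.7 and 185 TPM in the WT libraries, against 207, 88.5 and 93.5 TPM in the S156A libraries. Ifitm3 measured 18.1, 22.3 and 49.99 TPM in the WT libraries, against 52.1, 31.8 and 31.5 TPM in the S156A libraries. Ifitm1 measured 7.24, 10.3 and 17.8 TPM in the WT libraries, against 29.7, 10.1 and 12.8 TPM in the S156A libraries. For all 3 genes the 2 highest libraries were WT replicate 3 and S156A replicate 1, and the limma adjusted p lay between 0.646 and 0.893. Ifitm3 was also higher in S156A within the muscle-poor libraries, by 0.63 on the log2 scale. Its limma unadjusted p was 0.00974 with both muscle-rich libraries left out (adjusted p = 0.171) and 0.012 without WT replicate 3 (adjusted p = 0.18). The same 2 libraries were also the 2 highest for Irf1, Ifi27, Ifi35 and Cd74, which makes 7 of 30 tested members (23.3%), against 13.8% of all tested genes. Ifi27, a mitochondrial protein gene strongly induced by interferon, was at 58.2 and 50.2 TPM in them and between 7.49 and 21.0 TPM elsewhere. Ifi35, whose protein is another induced cytosolic factor, was at 6.25 and 7.53 TPM in them and between 2.66 and 3.87 TPM elsewhere. Of the 50-base words of Ifitm2, 48.5% occur in other genes, and Gm45717 overlaps it on the same strand. Muscle and fibroblast markers moved with these 7 members, and their part in the values was not tested.

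**Figure D3:**
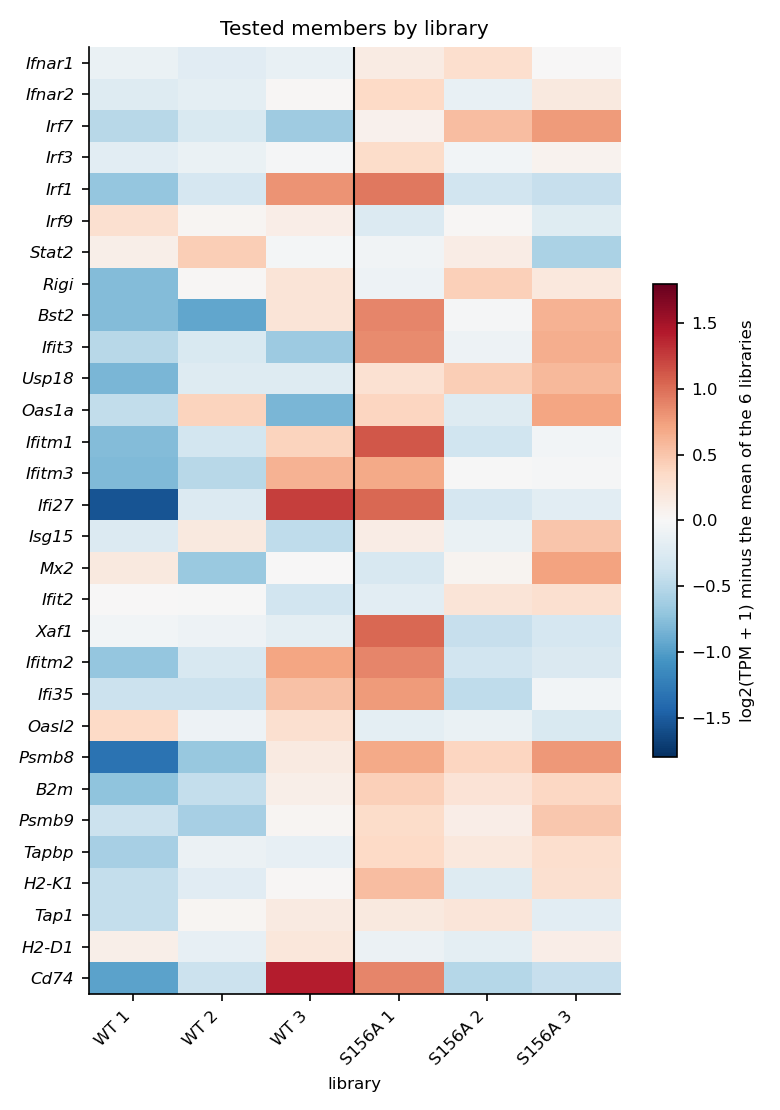
Colour gives log2(TPM + 1) of each of the 30 tested members (rows) minus its mean over the 6 libraries (columns), with a line between WT and S156A. Ifitm1, Ifitm2, Ifitm3, Irf1, Ifi27, Ifi35 and Cd74 are highest in WT 3 and S156A 1, while Irf7, Usp18, Psmb8, Psmb9, B2m and Tapbp are higher in all 3 S156A libraries.

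The remaining effectors were low and did not separate the groups, except Oasl2. Oasl2, a member of the oligoadenylate synthetase family, measured 2.93, 1.895 and 2.76 TPM in the WT libraries, against 1.73, 1.83 and 1.54 TPM in the S156A libraries. It lay lower in every S156A library (log2 difference -0.37, SE 0.25, limma adjusted p = 0.547). Oas1a, which makes the oligoadenylates that activate RNase L, ranged from 0.129 to 1.62 TPM in WT and from 0.697 to 2.25 TPM in S156A. Of the 50-base words of Oas1a, 57.6% occur in Oas1g, so this level is uncertain. Mx1 and Mx2, dynamin-like GTPases that block viruses, had their highest values, 1.803 and 2.23 TPM, in S156A replicate 3. Mx1 and Rsad2, the radical SAM enzyme viperin, had means below 1 TPM and were not tested. Xaf1, a promoter of apoptosis, reached 3.24 TPM in S156A replicate 1, while the other 5 libraries lay between 0.550 and 0.988 TPM.

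The genotype difference was also read within each kind of library. Of the 30 tested members, 21 (70.0%) were higher in S156A both in the muscle-poor and in the muscle-rich libraries, against 41.2% of all tested genes. Irf9, Stat2, Oasl2 and H2-D1 were lower in both, and Mx2, Xaf1, Ifi27, Rigi and Cd74 had opposite signs in them. Ifit3 differed by 0.67 in the muscle-poor and by 1.51 in the muscle-rich libraries on the log2 scale. Irf7 differed by 1.05 and 0.73, Usp18 by 1.05 and 0.51, and Psmb8 by 1.59 and 0.51. The muscle-rich comparison is 1 library against 1 and has no replicate check.

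**Figure D4:**
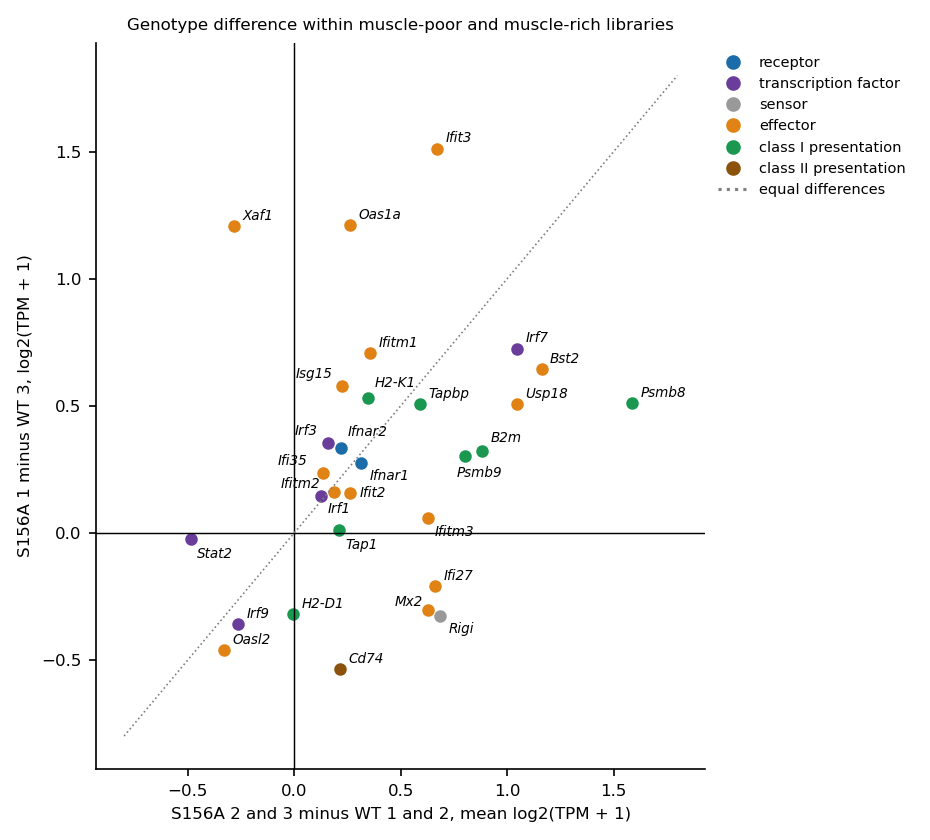
Each point is a tested member, coloured by role. The horizontal axis gives the mean log2(TPM + 1) of S156A 2 and 3 minus that of WT 1 and 2, the vertical axis S156A 1 minus WT 3, and the dotted line marks equal differences. The 21 members in the upper right quadrant were higher in S156A in both comparisons, and Irf9, Oasl2, Stat2 and H2-D1 lie at the lower left.

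Among the summed immune cell markers, the microglia sum separated the groups. The sums of border macrophage and blood leukocyte markers overlapped between groups, with 0 calls in either list. Within the muscle-poor and within the muscle-rich libraries, however, these sums were also higher in S156A. Cx3cr1, the fractalkine receptor of microglia, was at 4.17 to 5.59 TPM in WT and at 20.7 to 25.4 TPM in S156A. Summed TPM of 14 microglia markers was 166 to 257 in WT and 491 to 580 in S156A, all 14 had higher means in S156A, 4 rose at an adjusted p under 0.05 by limma, and none was listed at 0. Mrc1, a border macrophage marker, was at 4.02 to 12.1 TPM in WT and at 14.1 to 16.8 TPM in S156A, with no overlap (limma adjusted p = 0.261). Summed TPM of 7 border macrophage markers was 29.7 to 99.9 in WT and 67.0 to 145 in S156A. In the muscle-poor libraries this sum was 29.7 and 41.4 in WT against 67.0 and 69.7 in S156A. All 6 tested border macrophage markers had higher means in S156A (61.7% of all tested genes did). For 13 blood leukocyte markers the sum was 4.82 to 12.7 in WT and 8.94 to 19.0 in S156A, with Cd3e, Ms4a1, Nkg7, Ccr2 and Itgax among those listed at 0 in at least 1 library. In the muscle-poor libraries the leukocyte sum was 4.82 and 6.79 in WT against 12.1 and 8.94 in S156A. Ptprc, the pan-leukocyte phosphatase CD45, did not exceed 0.899 TPM and was not tested. Its groups did not overlap, by a very small margin (highest WT library 0.5443 TPM, lowest S156A library 0.5446 TPM). Endothelial markers had sums of 289 to 352 in WT and 350 to 386 in S156A, with Pecam1 at 16.3 to 30.7 and 16.2 to 34.0 TPM. Choroid plexus markers summed to 1166 to 1578 in WT and 2395 to 3539 in S156A, with no overlap. All 9 tested had higher means, 6 at an unadjusted p under 0.05 by limma (8.41% of all tested genes), and 0 were called. Astrocyte markers summed to 434 to 495 in WT and 513 to 674 in S156A, with no overlap. Of 8 tested, 6 had higher means (61.7% of all tested genes did) and 1 was called. At an unadjusted p under 0.05 by limma, 3 were higher and 1 was lower (8.41% and 5.5% of all tested genes). Neuron markers summed to 4932 to 6648 in WT and 3441 to 4825 in S156A, also with no overlap. Of 10 tested, 7 were lower at an unadjusted p under 0.05 by limma (5.5% of all tested genes), and 2 had an adjusted p under 0.05. The part of these cell markers in the member values was not tested.

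**Figure D5:**
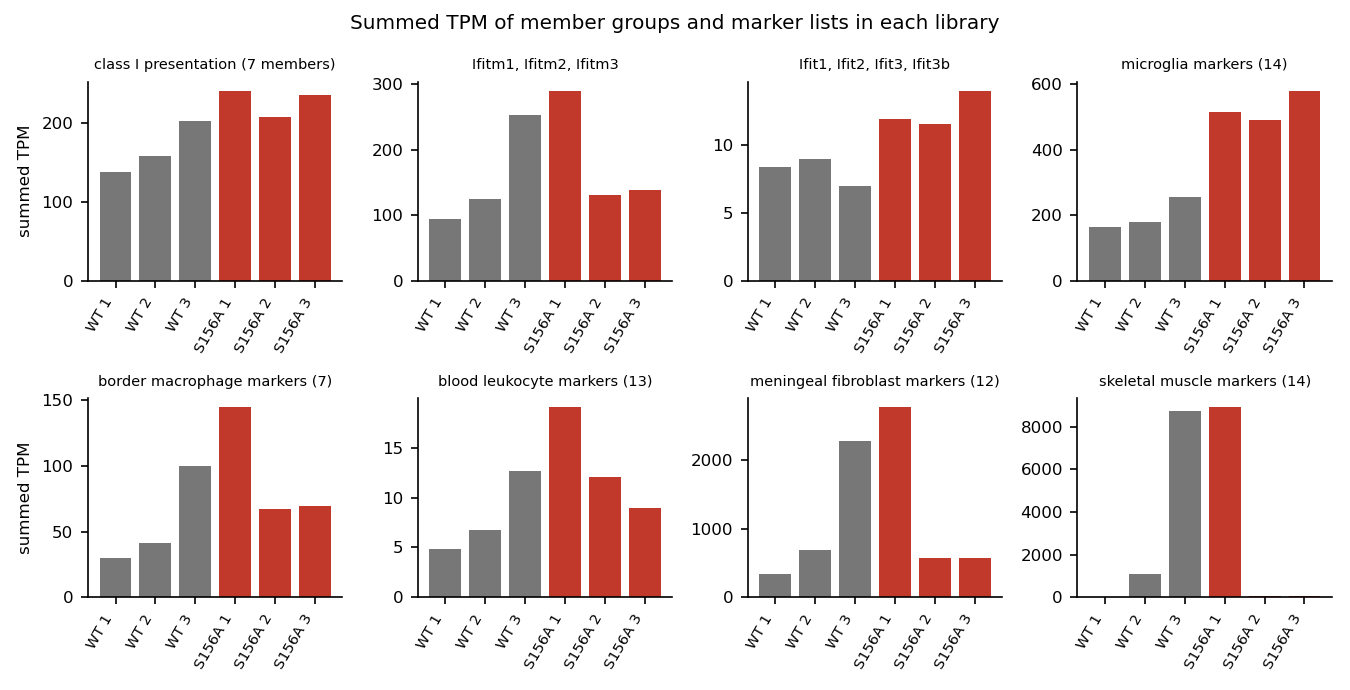
Summed TPM (vertical axis, bars from 0) of 3 groups of members and 5 marker lists in each WT (grey) and S156A (red) library. The Ifitm sum is highest in WT 3 and S156A 1, as are the fibroblast and muscle sums, while the class I, Ifit and microglia sums are higher in every S156A library than in any WT library.

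Other genes of the pathway, from lists that exclude the members, gave the following counts by limma, each with 0 genes at an adjusted p under 0.05. Of all tested genes, 61.7% had higher means, 8.41% were higher and 5.5% lower at an unadjusted p under 0.05, and 13.7% did not overlap with S156A higher, and the counts of each list are to be read beside these shares. Among 28 tested interferon-stimulated genes outside the members, 23 had higher means, 5 had an unadjusted p under 0.05, all higher, and the median log2 difference was 0.33. Pml, which organises nuclear bodies, was at 6.33 ± 1.35 TPM in WT against 9.87 ± 0.61 TPM in S156A. Parp12, an antiviral ADP-ribosyltransferase, was at 4.09 ± 1.32 and 7.43 ± 1.57 TPM (SD, n = 3 each). Trim30a and Lgals3bp had log2 differences of 0.73 and 0.67. All 9 tested GTPases induced by interferon gamma had higher means, with 1 (11.1%, near the 8.41% of all genes) at an unadjusted p under 0.05, Gbp10 at 0.605 ± 0.175 and 1.64 ± 0.625 TPM. The named Gbp2, Irgm1 and Irgm2 had log2 differences of 0.49, 0.76 and 0.62.

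In the signalling list, 12 of 15 tested genes had higher means and 2 had an unadjusted p under 0.05. Ptpn6, a phosphatase of blood cells and microglia, was at 3.53 ± 1.96 TPM in WT against 7.64 ± 0.30 TPM in S156A (SD, n = 3 each). Ptpn2, which removes phosphate from Jak1, was at 20.7 ± 3.56 and 28.7 ± 4.90 TPM. Ptpn1 and Pias1 had log2 differences of 0.24 and 0.38. Among nucleic acid sensing genes, 18 of 20 had higher means, 9 had an unadjusted p under 0.05 (45%, against 8.41% of all genes), all higher, and for 10 the groups did not overlap with S156A higher (50%, against 13.7%). Unc93b1, which escorts nucleic acid Toll-like receptors to endosomes, was at 8.91 ± 2.16 TPM in WT against 22.996 ± 2.05 TPM in S156A (limma adjusted p = 0.0697). Irf8, a lineage factor of microglia and other myeloid cells, was at 1.18 ± 0.76 and 6.56 ± 1.49 TPM (limma adjusted p = 0.086). Ddx41 and Tbk1 had log2 differences of 0.53 and 0.40.

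In the rest of the class I pathway, 15 of 22 tested genes had higher means, 3 were higher and 1 lower at an unadjusted p under 0.05, and the median of 0.14 was near that of all genes. Psme2, a subunit of the proteasome activator PA28, was at 22.5 ± 5.30 TPM in WT against 44.5 ± 12.9 TPM in S156A (limma adjusted p = 0.205). The class I-like genes Hfe and Mr1 had log2 differences of 0.89 and 0.93. H2-Q2 went the other way, measured 4.88, 5.83 and 3.47 TPM in the WT libraries, against 0.615, 1.83 and 2.02 TPM in the S156A libraries, with no overlap (log2 difference -1.23, SE 0.33, limma adjusted p = 0.2). In the class II list, 5 of 7 tested genes had higher means and 2 had an unadjusted p under 0.05. These were lysosomal proteases: Ctss was at 10.3 ± 1.49 TPM in WT against 24.1 ± 2.80 TPM in S156A (limma adjusted p = 0.0643), and Ctsl at 79.2 ± 9.85 and 127 ± 5.31 TPM (limma adjusted p = 0.0851). The class II chains H2-Aa, H2-Ab1 and H2-Eb1, picked after their values were seen, did not exceed 1.89 TPM in any library. H2-DMa and Ifi30 had log2 differences of 0.48 and 0.70.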

How the data were processed

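Total RNA was extracted from pools of 3 whole E18.5 brains and made into strand-keeping libraries, per the labels' protocols. The authors deposited StringTie gene abundance tables, and the tools listed with them are StringTie 2.1.5, HISAT2 2.2.1 and Trim Galore 0.6.6, per the submitters' processing notes. The deposited TPM and FPKM values are scaled to transcript length and library, per the file headers, and the deposited coverage is a mean signal per base, per the file headers. No source used here gives the strand setting. The notes name a human build, while the rows are mouse genes of which 4.15% start within 1000 bases of their GRCm38 position, so coordinates of the tables are not printed and promoter coordinates are those of GRCm38.p6.

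Annotated rows were used and rows sharing an identifier were summed. The tables hold no counts, so coverage divided by FPKM served as an estimate of depth and no counting intervals are given. Genes whose mean over the 6 libraries reached 1 TPM were tested on log2(TPM + 1) with limma 3.58.1 in R 4.3.3 (eBayes with trend, two-sided, Benjamini-Hochberg, call at an adjusted p under 0.05). This scale understates changes of low genes. The procedure was tested on simulated data in which values were drawn independently. These lack the content shared by WT replicate 3 and S156A replicate 1, so they do not check the test under it. Groups came from the sample titles.

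The members and lists were chosen with earlier results of these data known. All members are named, and up to 4 genes of each pathway list with the smallest unadjusted p. Sharing was measured as 50-base words of the longest GENCODE M21 transcript found in another gene. Alternatives were FPKM, pseudocounts of 0.1 and 5, testing all genes, a filter at a mean of 5 TPM, quantile scaling, trimmed-mean (TMM) scaling, rescaling after haemoglobin, mitochondrial and ribosomal RNA genes were dropped, robust eBayes, eBayes with no trend, library weights and a block for the replicate number. Each library was also left out in turn, as were both muscle-rich libraries together.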

Additional observations from a re-analysis of the deposited data

How the results depend on the processing

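Under all 19 alternatives 0 members had an adjusted p under 0.05 by limma, and the median log2 difference of the members was positive. Leaving out each library in turn gave 4 to 9 members at an unadjusted p under 0.05 and medians from 0.22 to 0.54, with 0 to 70 of all genes called. Fewer members could be tested with FPKM (20, of which 5 had an unadjusted p under 0.05) and with a mean TPM of at least 5 (16, of which 4). Over all genes the number called was 0 with no filter, 52 with quantile normalization, 16 without trend, 309 with library weights and 6 with both muscle-rich libraries left out, and the cause was not tested. Of all genes called, 16 of 30 were higher in S156A on TPM, 14 of 45 on FPKM, 14 of 44 with trimmed-mean scaling and 16 of 52 with quantile normalization. With the replicate number as a block, 7 members had an unadjusted p under 0.05 and 0 of all genes were called. Deviations of same-numbered libraries from their group means correlated at -0.55, 0.19 and -0.41, and those of the muscle-rich WT replicate 3 and S156A replicate 1 at 0.65. With so few libraries and content shared by that pair, these correlations cannot decide whether the numbers pair the libraries. H2-D1 turned to 0.0215 with library weights, and Cd74 to 0.14 with a pseudocount of 0.1 and 0.12 with library weights. With 1 library left out, signs changed for Cd74 (-0.53 to 0.66), Ifi27 (-0.31 to 1.09), Irf1 (-0.31 to 0.57), Ifitm2 (-0.21 to 0.58), Ifi35 (-0.17 to 0.47) and Tap1 (-0.0335 to 0.27). Leaving out 1 library moved the difference of 19 of the 30 tested members by over 1.5 times and that of the other 11 by less. These 11 are the 8 with an unadjusted p under 0.05, Psmb9, Irf9 and Oasl2. The move is measured against each member's own difference in the same libraries. A small p and a small move therefore go together, and the match is not separate evidence. The other 527 of 541 single-gene values kept their sign and side of the threshold. TPM without counts leaves the precision of genes near 1 TPM unknown.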

Other observations

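Some genes of the nucleic acid sensing list had a value in 1 library that stood away from the other 5, and they were picked after their values were seen. Irf2, a factor that binds the same elements as Irf1, measured 9.84, 10.1 and 10.6 TPM in the WT libraries. Its S156A values, in the same order, were 1.003, 9.12 and 7.203 TPM, so every S156A library lay below every WT library (limma adjusted p = 0.472). Tlr7, the endosomal receptor for single-stranded RNA, measured 0.130, 0.124 and 0.195 TPM in the WT libraries. In the S156A libraries it was at 0.474, 3.63 and 0.669 TPM, each above every WT library. Its mean was below 1 TPM and it was not tested. S156A replicate 2 was also the library in which Ifnk (0.756 TPM) and Ifng (0.170 TPM) were listed above 0. Both values are low and rest on 1 library without read counts. Any link to Tlr7 was not tested.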
